A study of Homo sapiens with 6 samples.

Results

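The genes described here encode the subunits of the proteasome, the proteins that activate or inhibit it, and the chaperones that assemble it. They were chosen by symbol, as PSM followed by a letter from A to G and a number, with PSMB8 and PSMB9 left out. The deposited counts cover 62754 genes, of which 46 carry such a symbol, and 44 of these had at least 10 counts in 3 or more of the 6 libraries. The 2 that did not were PSMA8, with 0 counts in every siNC library and 0, 1 and 1 in the siNAT10 libraries, and PSMB11, with 1 count in siNAT10 1 and 0 in the other 5 libraries. PSMG4 was the gene closest to the limit among the 44, and its third-highest library still held 241 counts. All 44 also passed the filter on low counts and were tested together with the other genes, 19874 in all.

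RNA was sequenced from HK-2, an immortalized line of human proximal tubule epithelial cells, after treatment with Cisplatin, a platinum drug that crosslinks DNA and injures kidney tubules. In the siNC group the cells carried a negative control siRNA, and in the siNAT10 group an siRNA against NAT10, which encodes an RNA acetyltransferase of the nucleolus, so that both groups shared the cell line and the Cisplatin exposure and differed in the siRNA (n = 3 libraries per group). Neither the dose of Cisplatin nor the time is in the labels, nor whether the libraries of a group came from separate cultures, so p-values measure the spread between these libraries, which may be technical. Total counts were 19321665, 21602988 and 19464027 in siNC 1 to 3 and 20793709, 21531774 and 25192736 in siNAT10 1 to 3. Levels are given as CPM, counts in proportion to the library size after TMM correction of the sizes, and fold changes as the log2 of siNAT10 over siNC with the standard error (SE). Adjusted p refers throughout to the quasi-likelihood test of edgeR, with p-values adjusted by Benjamini-Hochberg over the 19874 genes, and a gene was called higher or lower at an adjusted p under 0.05. In bulk RNA, fewer cells that express a gene and less RNA per cell cannot be told apart.

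The targeted gene was examined first. NAT10 (ENSG00000135372), on chromosome 11 from 34105617 to 34147670 (GRCh38), was measured at 75.8, 71.4 and 73.2 CPM in siNC 1 to 3 and at 41.3, 40.5 and 42.4 CPM in siNAT10 1 to 3. Every siNAT10 library lay below every siNC library, at 56.4% of the siNC mean (log2 fold change -0.82, SE 0.0426, edgeR quasi-likelihood adjusted p = 2.79e-15). The identity of the cells was checked with markers, given here as CPM of the uncorrected library total. Of 13 proximal tubule genes, 7 were at or below 1 CPM in every library, namely LRP2, CUBN, SLC34A1, SLC22A6, SLC22A8, ANPEP and HNF4A, so the endocytic receptors and several transporters that define the tubule in the kidney were at or near 0. Of the tubule genes that were detected, GGT1 was at 32.2 to 33.0 CPM in siNC and 25.7 to 29.4 CPM in siNAT10, SLC5A2 at 8.22 to 9.63 CPM in siNC and 11.6 to 11.8 CPM in siNAT10 and PAX8, a transcription factor of the kidney lineage, at 29.3 to 32.5 CPM in siNC and 42.9 to 52.0 CPM in siNAT10, while AQP1 was at 0.557 to 1.25 CPM over the 6 libraries. GGT1 was called lower and the other 2 higher. Among 6 epithelial genes the keratin gene KRT8 was at 1415 to 1451 CPM in siNC and 1457 to 1480.0 CPM in siNAT10 and KRT19 at 169 to 181 CPM in siNC and 178 to 179 CPM in siNAT10, neither of them called. KRT18 was lower at 334 to 349.7 CPM in siNC and 267 to 281 CPM in siNAT10 (log2 fold change -0.36, edgeR quasi-likelihood adjusted p = 3.79e-10), EPCAM was higher at 13.9 to 16.1 CPM in siNC and 18.0 to 21.4 CPM in siNAT10 (log2 fold change 0.31, edgeR quasi-likelihood adjusted p = 0.000902), and of the cadherin genes CDH1 was near 0 and CDH2 higher at 72.2 to 77.3 CPM in siNC and 85.3 to 90.1 CPM in siNAT10. Of 3 leukocyte genes, whose summed level was 196 to 213 CPM in siNC and 269 to 291 CPM in siNAT10, nearly all was the lysosomal gene CD68, which was called higher. The defining leukocyte gene PTPRC was low in both groups, at 0.36 to 0.463 CPM in siNC and 0.481 to 1.35 CPM in siNAT10, and was called higher too (log2 fold change 0.96, edgeR quasi-likelihood adjusted p = 0.0411), while CD3E reached at most 0.418 CPM. The call of PTPRC was lost without siNC 1, siNC 2, siNC 3 or siNAT10 2 (edgeR adjusted p = 0.0932, 0.0719, 0.102 and 0.404). It was also lost with DESeq2 and with the gene length trend (a correction for a trend over gene length in each library). Over the 13 alternatives in which PTPRC was tested, the edgeR or DESeq2 adjusted p ran from 0.0115 to 0.404. Without siNAT10 2 the log2 fold change of PTPRC was 0.46. All 3 endothelial genes were at or below 1 CPM, as were the fibroblast genes COL1A2 and PDGFRB, and COL1A1 was higher at 9.92 to 11 CPM in siNC and 12.8 to 15.7 CPM in siNAT10. Whether cells other than HK-2 have a part in the differences between the groups was not tested.

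The proteasome degrades proteins that carry ubiquitin chains, and in tubule cells as in most others it removes short-lived regulators of the cell cycle and damaged proteins. Its core particle is a barrel of stacked rings, in which the outer rings of alpha subunits gate the entrance and the inner rings of beta subunits hold the proteolytic sites. A regulatory particle caps the barrel, with a base of ATPases that unfold the substrate and a lid that cuts off its ubiquitin, while smaller activators can dock in its place and dedicated chaperones put the rings together.

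Most of the subunit genes were lower with NAT10 siRNA, by a small amount. Of the 44 genes 29 were lower and 4 higher, against 22.3% lower and 21.8% higher among all genes tested. Together 33 of the 44 (75%) were called, where 44.1% of all genes tested were called and 62.1% of the 9731 genes whose siNC mean lay within the range of these 44. None of the 44 had a change over 2-fold in edgeR at any p, which together with an adjusted p under 0.05 held for 2.33% of all genes tested. The median log2 fold change was -0.16 for the 44 genes, 0.0070 for all genes tested and -0.0045 for those in the same range of levels. The 31 constitutive subunits of the core, base and lid, which leave out the inducible PSMB10, all had a log2 fold change below 0, with 26 of them called lower and a median of -0.19. Under scaling by library size only, 29 of the 31 were below 0, with PSMD4 at 0.0061 and PSMD7 at 0.030. The number was also 29 with the gene length trend. It was 30 with no filter and without siNC 1, siNAT10 1 or siNAT10 2. The other 13 genes, the activators, the inhibitor, the assembly factors and PSMB10, were divided, with 4 called higher, 3 lower and 6 not called. The libraries of the groups did not overlap for 35 of the 44 genes, 31 of them lower and 4 higher in siNAT10, beside 5112 lower and 5109 higher among the 19874 genes.

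**Figure D1:**
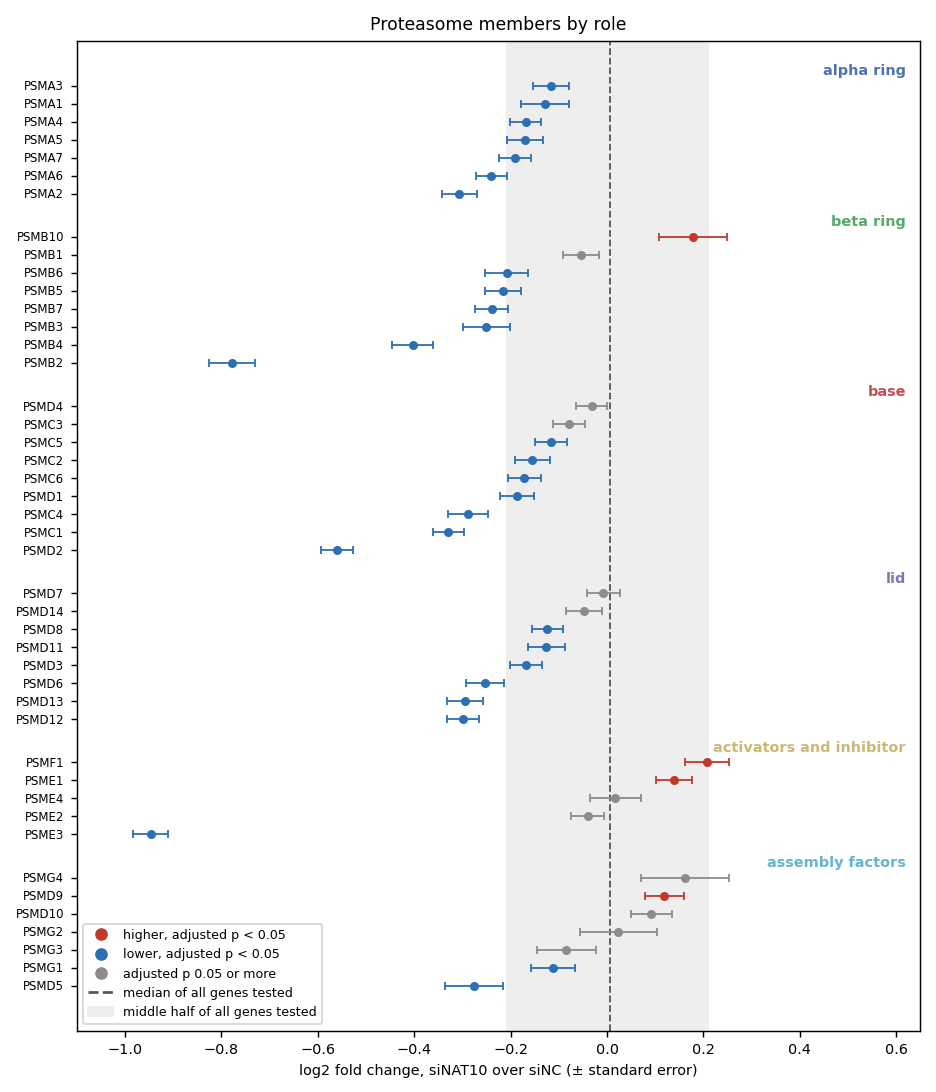
Log2 fold change of each of the 44 genes, siNAT10 over siNC, with bars of 1 standard error, grouped by role; blue points were called lower, red points higher and grey points neither, the grey band is the interquartile range of all 19874 genes and the dashed line their median. Points of the alpha ring, base and lid lie left of 0, and PSME3 (-0.95), PSMB2 (-0.78) and PSMD2 (-0.56) lie furthest left. When scaled by library size only, PSMD4 and PSMD7 were right of 0, at 0.0061 and 0.030. With the gene length trend they were at 0.0069 and 0.039, and PSMD7 was right of 0 in 6 of 14 alternatives.

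Summed over the 44 genes, the level was 7909.9, 7824 and 7824 CPM in siNC 1 to 3 and 6830.4, 6650.0 and 6735 CPM in siNAT10 1 to 3. The siNAT10 libraries lay below the siNC libraries and close to each other, with means of 7853 ± 49.5 CPM in siNC and 6739 ± 90.2 CPM in siNAT10 (SD, n = 3 per group), which is 85.8% of the siNC level. As a share of all counts before any scaling, the genes took 0.771%, 0.775% and 0.774% in siNC and 0.692%, 0.675% and 0.678% in siNAT10, so the groups were apart without TMM as well. An exact permutation test on 3 and 3 libraries cannot give a two-sided p below 0.10, so none is given for the sums. Most of the fall was in the base only when PSMD2 was counted, and this 1 gene carried a large share of it. With PSMD2 left out, the base went from 2049 CPM in siNC to 1804 CPM in siNAT10. The sum over all roles then went from 6518 to 5833 CPM. PSMD2 held 17% of the summed siNC level and 38.5% of the fall of 1114 CPM, and without it the sum in siNAT10 was 89.5% of that in siNC. By role, the siNAT10 level was 80.1% of siNC for the base, 84.6% for the beta ring and 87.4% for the alpha ring. It was 91.0% for the lid, 94.1% for the activators with the inhibitor and 101% for the assembly factors. Without PSMD2 the base was at 88.1% of siNC, above the beta ring and the alpha ring. The base was thus the lowest role only with PSMD2 counted. Without PSME3 the activators with the inhibitor were higher in every siNAT10 library than in any siNC library, at 501 ± 17.2 CPM in siNC and 531 ± 12.9 CPM in siNAT10 (SD, n = 3), 106% of siNC, so that group was lower only with PSME3 counted.

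**Figure D2:**
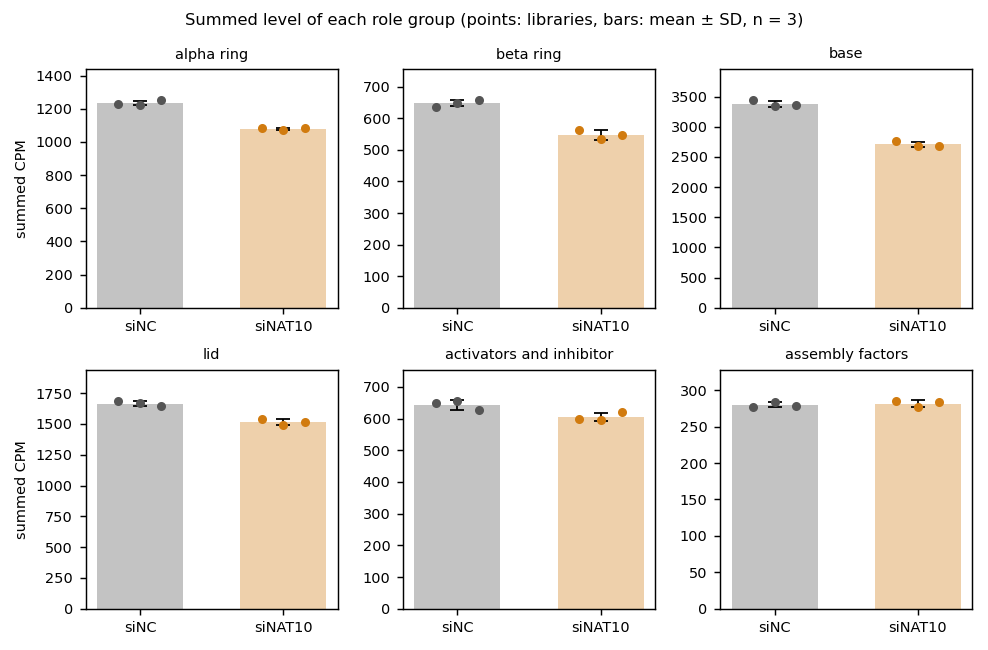
Summed CPM of the genes of each role in siNC and siNAT10; points are libraries, bars the mean and whiskers the SD of 3 libraries, and each vertical axis starts at 0. The 3 siNAT10 libraries lie below the 3 siNC libraries for the alpha ring, beta ring, base, lid and activators with the inhibitor, of which the last overlap between the groups when taken as shares of the unscaled counts and lie above siNC without PSME3, and the groups overlap for the assembly factors (279.6 ± 3.47 CPM in siNC and 281 ± 4.52 CPM in siNAT10).

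The alpha ring forms the gate of the core particle. All 7 of its expressed genes were lower, PSMA1 to PSMA7, with log2 fold changes from -0.31 to -0.12 and a median of -0.17. PSMA2 (chromosome 7 from 42916828 to 42932174) fell most, from 119, 120.0 and 121 CPM in siNC 1 to 3 to 100.1, 95.8 and 95.1 CPM in siNAT10 1 to 3 (log2 fold change -0.31, SE 0.0357, edgeR quasi-likelihood adjusted p = 4.09e-08). PSMA6 (chromosome 14 from 35278633 to 35317347) was measured at 192, 190.1 and 191 CPM in siNC and at 163, 164 and 159 CPM in siNAT10 (log2 fold change -0.24, SE 0.0326, edgeR quasi-likelihood adjusted p = 5.82e-07). For both genes the replicates of a group were within a few CPM of each other and the groups were far apart. The remaining alpha genes fell less, with log2 fold changes of -0.19 ± 0.0330 (SE) for PSMA7, -0.17 ± 0.0376 for PSMA5, -0.17 ± 0.0327 for PSMA4, -0.13 ± 0.0499 for PSMA1 and -0.12 ± 0.0372 for PSMA3, each with siNAT10 libraries below all siNC libraries. PSMA1 and PSMA3 had the least certain calls of the ring, at edgeR quasi-likelihood adjusted p of 0.0382 and 0.0118. The call of PSMA1 was lost when siNC 2, siNC 3, siNAT10 2 or siNAT10 3 was left out (edgeR adjusted p = 0.0895, 0.0914, 0.130 and 0.0916). Over all alternatives its edgeR or DESeq2 adjusted p ran from 0.0263 to 0.197, with 0.197 from DESeq2. Its call was also lost under library size scaling, with no filter, with DESeq2 and with the gene length trend. That of PSMA3 was lost without siNAT10 2 or siNAT10 3 (edgeR adjusted p = 0.0722 and 0.0611; 0.00315 to 0.0883 over all alternatives), under library size scaling and with the gene length trend.

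The beta ring carries the proteolytic sites. Of its 8 expressed genes 6 were lower, PSMB10 was higher and PSMB1 was not called. The 3 catalytic subunits of the constitutive core fell by similar proportions. PSMB5, the chymotrypsin-like subunit and the main target of proteasome inhibitor drugs, went from 103, 103 and 106 CPM in siNC 1 to 3 to 92.7, 86.0 and 90.5 CPM in siNAT10 1 to 3 (log2 fold change -0.22, SE 0.0377, edgeR quasi-likelihood adjusted p = 2.71e-05). PSMB6, the caspase-like subunit, went from 61.7, 63.6 and 61.8 CPM to 56.9, 50.5 and 54.7 CPM (log2 fold change -0.21, SE 0.0447, edgeR quasi-likelihood adjusted p = 0.000339). PSMB7, the trypsin-like subunit, went from 182, 185 and 186 CPM to 162, 155 and 152 CPM (log2 fold change -0.24, SE 0.0341, edgeR quasi-likelihood adjusted p = 1.22e-06). In all 3 the lowest siNC library was above the highest siNAT10 library, and their siNAT10 means were 86.1%, 86.6% and 84.8% of the siNC means.

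Larger falls were found in the non-catalytic beta subunits PSMB2 and PSMB4. PSMB2 (chromosome 1 from 35599541 to 35641526) was measured at 55.6, 56.6 and 61.0 CPM in siNC and at 35.1, 32.4 and 33.5 CPM in siNAT10, 58.4% of the siNC mean (log2 fold change -0.78, SE 0.0482, edgeR quasi-likelihood adjusted p = 1.48e-13). PSMB4 (chromosome 1 from 151399560 to 151401936) was measured at 61.1, 62.3 and 64.5 CPM in siNC and at 46.4, 47.4 and 48.3 CPM in siNAT10 (log2 fold change -0.40, SE 0.0423, edgeR quasi-likelihood adjusted p = 6.03e-09). Neither gene had a siNAT10 library near the siNC range. PSMB3, another subunit without a catalytic site, had a log2 fold change of -0.25 ± 0.0485 (SE), and PSMB1 one of -0.054 ± 0.0369, with overlapping groups and an edgeR quasi-likelihood adjusted p of 0.25. The value of PSMB1 was -0.026 without siNAT10 2, -0.016 under library size scaling and -0.0018 with the gene length trend. PSMB10, the interferon-inducible subunit that takes the place of PSMB7 in immunoproteasomes, was the only gene of the core called higher. Its levels were 16.1, 17.8 and 16.5 CPM in siNC 1 to 3 and 20.0, 20.1 and 17.2 CPM in siNAT10 1 to 3 (log2 fold change 0.18, SE 0.0703, edgeR quasi-likelihood adjusted p = 0.0398). The rise rested on siNAT10 1 and 2, since siNAT10 3 lay within the siNC range. It was no longer called when siNC 1, siNC 3, siNAT10 1 or siNAT10 2 was left out (edgeR adjusted p = 0.151, 0.105, 0.140 and 0.166; 0.00478 to 0.172 over all alternatives, with 0.172 from DESeq2).

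**Figure D3:**
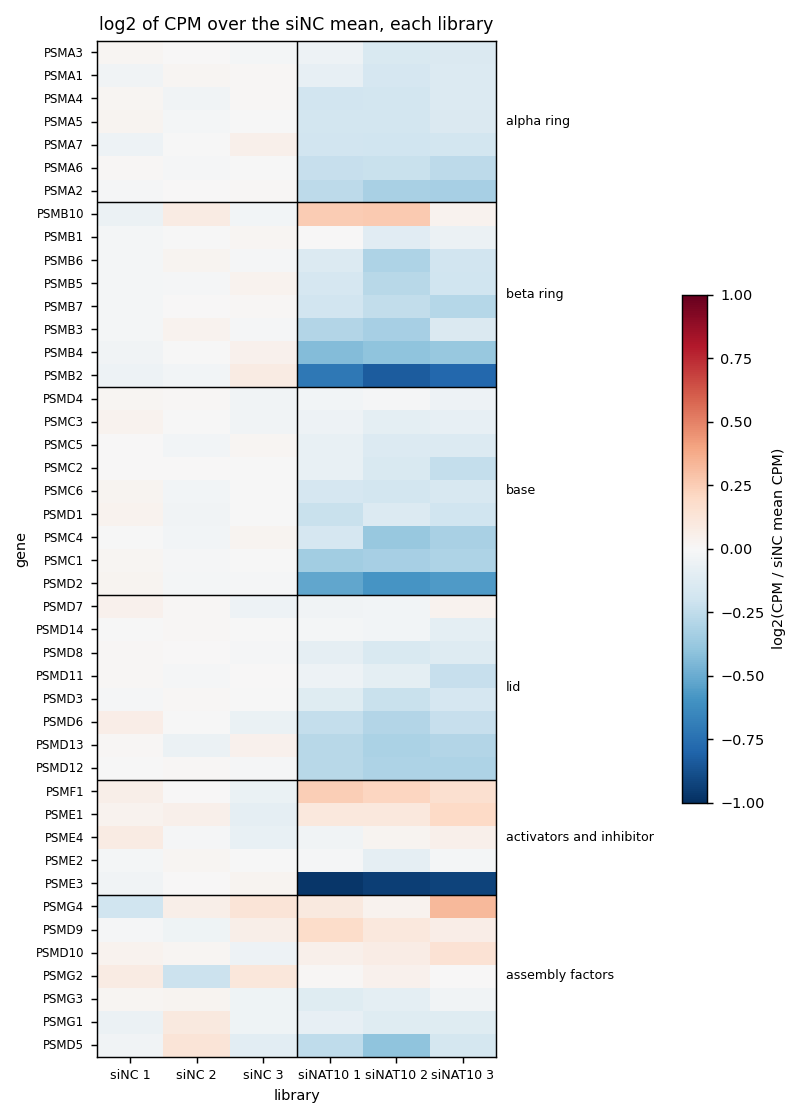
Level of each gene in each library as the log2 of its CPM over the siNC mean, with blue for lower and red for higher, genes ordered by role and the 3 siNC libraries left of the 3 siNAT10 libraries. PSMB2, PSMD2 and PSME3 are dark blue in all 3 siNAT10 libraries, and PSMB10 is red in siNAT10 1 and 2 and pale in siNAT10 3.

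The base of the regulatory particle pulls the substrate into the core. Of its 9 genes 7 were lower, and PSMC3 and PSMD4 were not called. PSMD2 (chromosome 3 from 184299198 to 184309048), a large scaffold subunit that docks ubiquitin receptors and the deubiquitinase USP14, had the highest siNC level of the 44 genes in CPM per kilobase. It fell from 1363, 1313 and 1327 CPM in siNC 1 to 3 to 930.0, 887 and 899.9 CPM in siNAT10 1 to 3, 67.9% of the siNC mean (log2 fold change -0.56, SE 0.0333, edgeR quasi-likelihood adjusted p = 6.62e-14). The gap between the groups was several times the spread within either. PSMC1 (chromosome 14 from 90256527 to 90272624), one of the ATPases, fell from 580.3, 568 and 572 CPM to 449.8, 456 and 463 CPM (log2 fold change -0.33, SE 0.0318, edgeR quasi-likelihood adjusted p = 1.23e-09), again without overlap. Among the other ATPases the log2 fold change was -0.29 ± 0.0417 (SE) for PSMC4, -0.17 ± 0.0338 for PSMC6, -0.16 ± 0.0364 for PSMC2 and -0.12 ± 0.0326 for PSMC5, all called lower. PSMC3 had -0.078 ± 0.0328, just past the limit at an edgeR quasi-likelihood adjusted p of 0.0534, although its siNAT10 libraries were below its siNC libraries, and its call depended on the setting. It was called lower under RLE scaling, upper quartile scaling, the stricter filter and without siNC 3 (edgeR adjusted p = 0.0474, 0.0447, 0.0348 and 0.0376; 0.0348 to 0.554 over all alternatives), and its value was -0.040 under library size scaling and -0.026 with the gene length trend. The other scaffold subunit, PSMD1, had -0.19 ± 0.0355 and was lower, and its value was -0.29 with the gene length trend. PSMD4, a ubiquitin receptor, had overlapping groups at -0.032 ± 0.0329 (edgeR quasi-likelihood adjusted p = 0.463), with -0.053 without siNC 3 and -0.019 without siNAT10 3.

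The lid removes ubiquitin before the substrate is unfolded. Of its 8 genes 6 were lower, and PSMD7 and PSMD14 were not called. The 2 largest falls were those of the scaffold subunits PSMD12 and PSMD13. PSMD12 (chromosome 17 from 67337916 to 67366577) was measured at 174, 176 and 173 CPM in siNC and at 144, 141 and 141 CPM in siNAT10 (log2 fold change -0.30, SE 0.0328, edgeR quasi-likelihood adjusted p = 1.46e-08). PSMD13 (chromosome 11 from 236966 to 252827) was measured at 98.8, 94.2 and 101 CPM in siNC and at 80.9, 78.6 and 79.8 CPM in siNAT10 (log2 fold change -0.29, SE 0.0379, edgeR quasi-likelihood adjusted p = 2.29e-07). Both were down by about the same proportion and without overlap between the groups. The log2 fold change was -0.25 ± 0.0393 (SE) for PSMD6, -0.17 ± 0.0332 for PSMD3, -0.13 ± 0.0384 for PSMD11 and -0.12 ± 0.0322 for PSMD8. PSMD11 lost its call without siNAT10 3, at -0.074, and under library size scaling, at -0.088 (edgeR adjusted p = 0.135 and 0.0699; 0.00116 to 0.135 over all alternatives). The smallest values were those of the pair that forms the deubiquitinating centre. PSMD14, the metalloprotease, had -0.047 ± 0.0374 (edgeR quasi-likelihood adjusted p = 0.326), and its inactive partner PSMD7 had -0.0080 ± 0.0342 (adjusted p = 0.877), the value nearest 0 of all 44 genes. The value of PSMD14 was -0.022 without siNAT10 3, -0.0096 under library size scaling and -0.084 with the gene length trend. That of PSMD7 ran from -0.038 to 0.039 over all alternatives and was above 0 in 6 of 14.

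The activators and the inhibitor bind the ends of the core in place of the regulatory particle, and of these 5 genes 2 were higher, 1 was lower and 2 were not called. PSME3 (chromosome 17 from 42824385 to 42843216), which encodes a ring-shaped activator of the nucleus, had the largest change of all 44 genes. It was measured at 138, 142 and 144 CPM in siNC 1 to 3 and at 72, 73.7 and 74.2 CPM in siNAT10 1 to 3, 51.9% of the siNC mean (log2 fold change -0.95, SE 0.0362, edgeR quasi-likelihood adjusted p = 4.28e-18). All siNAT10 libraries were far below the siNC range and close together. PSME1 and PSME2 encode the subunits of the related activator of the cytoplasm, which interferon induces, and their genes are neighbours on chromosome 14. PSME1 went from 281, 282 and 257 CPM to 294, 295 and 314 CPM and was called higher (log2 fold change 0.14, SE 0.0374, edgeR quasi-likelihood adjusted p = 0.00328). PSME2 went from 155, 159 and 157 CPM to 156, 147 and 155 CPM and was not called (log2 fold change -0.040, SE 0.0343, edgeR quasi-likelihood adjusted p = 0.376). The groups were separate for PSME1 and overlapped for PSME2, whose value was -0.013 without siNAT10 2, -0.0019 under library size scaling and -0.015 with the gene length trend. The call of PSME1 was lost without siNC 3, its lowest library, at 0.092 (edgeR adjusted p = 0.0602; 9.00e-05 to 0.0602 over all alternatives). PSME4, a large activator that works as a single chain, was measured at 31.3, 29.2 and 28.0 CPM in siNC and at 28.8, 30.1 and 30.5 CPM in siNAT10 (log2 fold change 0.017, SE 0.0531, edgeR quasi-likelihood adjusted p = 0.829). Its groups overlapped. PSMF1, the inhibitor of the core, rose from 43.4, 41.7 and 39.8 CPM to 49.3, 48.5 and 46.6 CPM, with every siNAT10 library above every siNC library (log2 fold change 0.21, SE 0.0464, edgeR quasi-likelihood adjusted p = 0.000515; log2 fold change 0.14 with the gene length trend).

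The assembly factors act before the particle is complete and are not part of it. Of the 7 genes 1 was higher, 2 were lower and 4 were not called. Of the pair PSMG1 and PSMG2, which join the first alpha subunits, PSMG1 was measured at 51.7, 57.5 and 52.4 CPM in siNC and at 51.0, 49.5 and 49.4 CPM in siNAT10 (log2 fold change -0.11, SE 0.0458, edgeR quasi-likelihood adjusted p = 0.0486). PSMG2 was measured at 14.8, 12.1 and 15.2 CPM in siNC and at 14.1, 14.4 and 14.0 CPM in siNAT10 (log2 fold change 0.024, SE 0.0796, edgeR quasi-likelihood adjusted p = 0.843). PSMG1 lay just below the siNC range and PSMG2 inside it. The call of PSMG1 was lost without siNC 2, siNAT10 1, siNAT10 2 or siNAT10 3 (edgeR adjusted p = 0.304, 0.0519, 0.126 and 0.124; 0.0278 to 0.315 over all alternatives), with no filter, the replicate block, DESeq2, library size scaling or the gene length trend. Its log2 fold change was -0.065 without siNC 2, -0.074 under library size scaling and -0.059 with the gene length trend. Of the other such pair, PSMG3 stood at 20.0, 20.1 and 19.2 CPM in siNC and at 18.1, 18.4 and 19.3 CPM in siNAT10 (log2 fold change -0.085, SE 0.0611, edgeR quasi-likelihood adjusted p = 0.280; log2 fold change -0.047 under library size scaling and -0.032 with the gene length trend). PSMG4, the lowest of the 44 genes in CPM per kilobase in siNC, stood at 9.35, 11.2 and 11.7 CPM in siNC and at 11.5, 11 and 13.5 CPM in siNAT10 (log2 fold change 0.16, SE 0.0917, edgeR quasi-likelihood adjusted p = 0.159). Both overlapped between the groups, and at these low counts their standard errors were among the larger ones. The log2 fold change of PSMG4 was 0.073 without siNC 1, 0.065 without siNAT10 3 and 0.090 with the gene length trend.

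The other 3 assembly factors guide the ATPases of the base. PSMD5 fell from 33.9, 38.0 and 32.4 CPM in siNC 1 to 3 to 29.1, 26.4 and 30.7 CPM in siNAT10 1 to 3 (log2 fold change -0.28, SE 0.0604, edgeR quasi-likelihood adjusted p = 0.000416). PSMD9 rose from 89.2, 87.4 and 93.8 CPM to 102, 97.1 and 94.4 CPM (log2 fold change 0.12, SE 0.0396, edgeR quasi-likelihood adjusted p = 0.0152). PSMD10, also known as gankyrin, was measured at 57.6, 57.2 and 54.3 CPM and 58.4, 59.4 and 62.2 CPM and was not called (log2 fold change 0.092, SE 0.0427, edgeR quasi-likelihood adjusted p = 0.0818). The groups were apart for all 3, below siNC for PSMD5 and above it for PSMD9 and PSMD10, so the chaperones of the base did not share a direction under any of the scalings. PSMD9 was no longer called without siNC 1, siNC 2 or siNAT10 1 (edgeR adjusted p = 0.0574, 0.107 and 0.0973; 0.00220 to 0.203 over all alternatives), nor with DESeq2, nor with the gene length trend, at 0.064. PSMD10 was called higher when scaled by library size only, at 0.13, and with the gene length trend, at 0.14 (edgeR adjusted p = 0.0142 and 0.00785; 0.00785 to 0.335 over all alternatives).

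Levels between genes were compared as CPM per kilobase of the gene length given in the table, so they depend on the length used. Subunits that are present in equal numbers in the particle differed widely in mRNA level. Among the 31 constitutive subunits the siNC mean ran from 8.77 CPM per kilobase for PSMD1 to 269 for PSMD2, a ratio of 30.7, with a median of 42.9. After PSMD2 came PSMA7 at 224, PSMD7 at 144, PSMC3 at 114 and PSMB7 at 103 CPM per kilobase. Of the catalytic subunits PSMB5 stood at 67.2 and PSMB6 at 43.1, while the inducible PSMB10 was at 10.3 in siNC and 11.8 in siNAT10. PSME1 was at 154 and its partner PSME2 at 43.8, above PSME3 at 27.4, PSMF1 at 4.02 and PSME4 at 2.84. In siNAT10 PSME3 was at 14.2 CPM per kilobase and PSMD2 at 183, so PSMA7 at 196 had the highest mean there. The lead of PSMA7 over PSMD2 in siNAT10 was larger than the SD of either (1.14 and 4.44, n = 3). The lowest levels were those of the assembly factors PSMG4 at 1.03 and PSMG2 at 1.12 in siNC, whose SDs of 0.120 and 0.137 cover the difference between them.

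**Figure D4:**
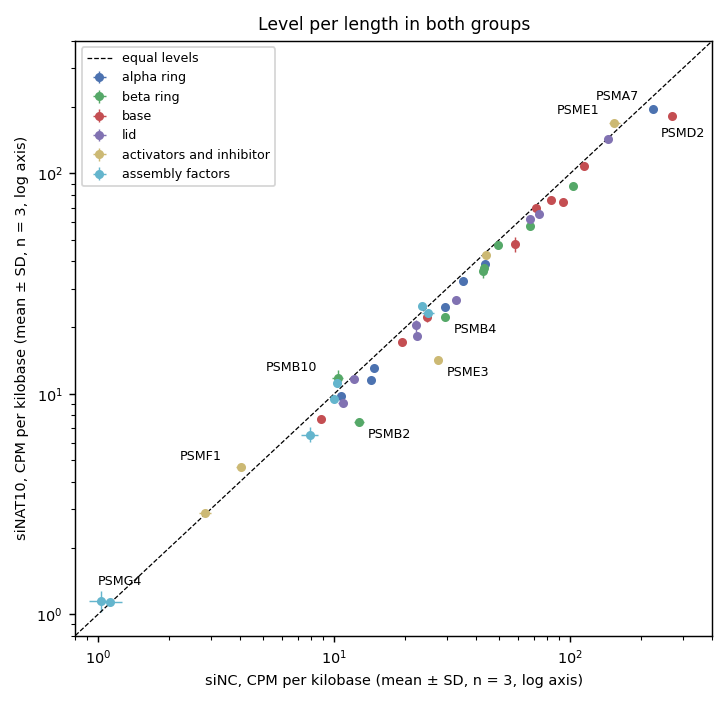
Mean level per kilobase of each gene in siNC (horizontal) and siNAT10 (vertical), both on log axes, with SD bars over 3 libraries and colours for roles; the dashed line marks equal levels. PSME3 (27.4 and 14.2), PSMB2 (12.7 and 7.44) and PSMD2 (269 and 183) lie furthest below the line.

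Some of these counts can hold reads of other genes, because the sources used here do not state whether strand or molecular identifiers were used in counting or how reads on overlapping genes were assigned. Of the 44 genes 17 overlap at least 1 gene with 10% or more of their own mean count, 6 of them on the same strand. The same-strand overlaps of PSMA1, PSMA2, PSMA6, PSMB10 and PSMD9 are with genes without a symbol that held 98.6%, 107%, 83.4%, 59.6% and 95.3% of the member's mean count, so the levels of these 5 genes are uncertain. The log2 fold changes of these overlapping genes were -0.17, -0.27, -0.25, 0.11 and 0.11 in the same order, each of the same sign as that of its partner. PMPCB, which overlaps PSMC2 on the same strand and held 45.0% of its mean count, had 0.10, the opposite sign. On the opposite strand 15 such genes overlap 12 members, and the log2 fold change of 10 had the sign of the member and that of 5 the opposite sign. Of the same sign was FTSJ3 with PSMC5 (140.0% of its mean count) at -0.14, and of the opposite sign were BECN1 with PSME3 (104%) at 0.26 and DNAJC2 with PSMC2 (228%) at 0.67. TUBB2B held the largest share, 822% of the mean count of PSMG4, at -0.0021. PMPCB and these 4 genes were named after their values were seen, and the levels of all members with such an overlap are likewise uncertain. The table also lists 44 genes named as pseudogenes of 17 of the members. The highest share was that of PSMC1P1, which held 4.77% of the mean count of PSMC1 (chosen after its value was seen), and reads of these members and their copies may have been assigned to either.

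Promoters were examined for what the genes share. The RefSeq table of promoters (GRCh38.p14, from 250 bases before to 50 after each start) matched 38 of the 44 genes, with 46 promoters because some genes have several starts, and PSMA7, PSMB1, PSMB6, PSMB7, PSMD4 and PSMG3 were not matched. The motif TGACNNNGC, the core of the antioxidant response element to which NFE2L1 and NFE2L2 bind, was searched on both strands. It was present in 14 of the 46 promoters (30.4%), each of a different gene, and in 13.3% of all 35116 promoters in the table. Of the 26 matched genes called lower 9 carry it, and of the other 12 matched genes 5. CCAAT, the box bound by NF-Y, was found on either strand in 18 of the 46 promoters (39.1%) and in 34.6% of all promoters, and in 14 of the 26 lower and 4 of the 12 other genes. The 2 motifs shared no bases in any of these promoters, and a match describes letters, not a bound site. The median GC content was 62.3% for the 46 promoters and 58.7% for all promoters. By position, chromosomes 14 and 17 each hold 7 of the 44 genes, with 5 and 7 of them called lower, beside 29 of all 44. Calls among the other genes of these chromosomes were not counted, and a link with position was not tested.

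The 250 bases before the start are shown for 6 genes, 3 with a TGACNNNGC match before the start and 3 with the largest falls, chosen after their values were seen. Each is written 5′ to 3′ on the strand of the gene, and capitals mark the motif matches. The first 3 are PSMB3 (chr17:38752491-38752740, plus strand), PSMD12 (chr17:67366578-67366827, minus strand), both lower, and PSME1 (chr14:24135944-24136193, plus strand), which was higher. They are followed by PSMD2 (chr3:184298991-184299240, plus strand), PSMB2 (chr1:35641527-35641776, minus strand) and PSME3 (chr17:42833147-42833396, plus strand).
PSMB3: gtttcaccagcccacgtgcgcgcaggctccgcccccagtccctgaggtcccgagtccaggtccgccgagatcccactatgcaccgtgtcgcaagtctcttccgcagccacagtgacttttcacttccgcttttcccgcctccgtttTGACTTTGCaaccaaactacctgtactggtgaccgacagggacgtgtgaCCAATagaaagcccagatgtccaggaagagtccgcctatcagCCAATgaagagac
PSMD12: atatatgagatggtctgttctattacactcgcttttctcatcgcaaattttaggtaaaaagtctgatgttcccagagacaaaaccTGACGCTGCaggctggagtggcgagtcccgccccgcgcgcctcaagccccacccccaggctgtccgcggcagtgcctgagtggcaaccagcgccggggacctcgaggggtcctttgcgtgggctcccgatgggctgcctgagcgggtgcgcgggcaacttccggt
PSME1: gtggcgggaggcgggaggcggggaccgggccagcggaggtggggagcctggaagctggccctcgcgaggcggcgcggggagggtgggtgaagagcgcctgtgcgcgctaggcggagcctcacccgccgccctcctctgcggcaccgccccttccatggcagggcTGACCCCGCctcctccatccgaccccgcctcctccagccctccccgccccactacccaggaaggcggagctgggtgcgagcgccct
PSMD2: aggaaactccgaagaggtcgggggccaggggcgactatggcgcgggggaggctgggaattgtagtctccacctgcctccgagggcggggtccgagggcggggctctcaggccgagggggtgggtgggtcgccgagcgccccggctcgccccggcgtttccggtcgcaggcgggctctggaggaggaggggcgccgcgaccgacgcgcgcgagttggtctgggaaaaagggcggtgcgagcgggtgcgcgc
PSMB2: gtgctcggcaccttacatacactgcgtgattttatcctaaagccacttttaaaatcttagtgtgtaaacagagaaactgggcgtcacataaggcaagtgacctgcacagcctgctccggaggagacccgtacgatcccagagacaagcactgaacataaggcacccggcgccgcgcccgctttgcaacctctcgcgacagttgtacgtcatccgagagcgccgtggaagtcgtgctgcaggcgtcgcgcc
PSME3: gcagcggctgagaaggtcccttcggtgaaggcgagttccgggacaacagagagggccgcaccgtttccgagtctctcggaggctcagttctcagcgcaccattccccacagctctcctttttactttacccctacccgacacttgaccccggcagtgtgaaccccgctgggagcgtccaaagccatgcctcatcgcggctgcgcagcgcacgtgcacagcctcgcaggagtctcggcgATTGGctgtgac

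In PSMB3 the TGACNNNGC match begins 104 bases before the start and is followed by CCAAT boxes that begin 55 and 13 bases before it. The match of PSMD12 begins 165 and that of PSME1 86 bases before the start, on the coding strand in both. PSMD2 has neither motif in this window, PSMB2 has a CCAAT that begins 2 bases before the start and runs past it, and PSME3 has 1 CCAAT on the opposite strand.

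Other genes of the ubiquitin-proteasome pathway, from 6 lists of 45 genes that were all tested, were mixed in direction. Of the 45 genes 8 were higher, 13 lower and 24 not called, so 46.7% were called, near the 44.1% of all genes, and their median log2 fold change was -0.0014. Of 8 further subunits and partners 1 was higher and 2 were lower. The highest was UBE3C, a ubiquitin ligase that extends chains on substrates at the proteasome, which rose from 75.6, 80.2 and 73.8 CPM in siNC 1 to 3 to 104, 106 and 113 CPM in siNAT10 1 to 3 (log2 fold change 0.49, SE 0.0408, edgeR quasi-likelihood adjusted p = 6.59e-11). ADRM1, a ubiquitin receptor of the base, fell from 162, 152 and 154 CPM to 132, 128 and 138 CPM (log2 fold change -0.23, SE 0.0364, edgeR quasi-likelihood adjusted p = 8.04e-06). Neither overlapped between the groups. SEM1, a small lid subunit outside the symbol rule, had a log2 fold change of 0.028 ± 0.0402 (SE) and USP14 of -0.015 ± 0.0393, with edgeR quasi-likelihood adjusted p of 0.605 and 0.787. Of 3 genes of maturation and transport, POMP, a chaperone of core maturation, had -0.022 ± 0.0486 (edgeR quasi-likelihood adjusted p = 0.749), and AKIRIN2, which brings proteasomes into the nucleus, was lower at -0.18 ± 0.0574 (adjusted p = 0.0133). AKIRIN2 lost its call without siNC 3, siNAT10 2 or siNAT10 3 (edgeR adjusted p = 0.0712, 0.0732 and 0.0649). The call was also lost under library size scaling, with DESeq2 and with the gene length trend. Over all alternatives its edgeR or DESeq2 adjusted p ran from 0.00297 to 0.0983, with 0.0983 from DESeq2.

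Of 8 genes of the factors that transcribe proteasome genes or process those factors 5 were lower and 1 higher. NFE2L1, the factor that raises proteasome transcription when degradation fails, was measured at 518, 515 and 533 CPM in siNC and at 573, 559 and 560.1 CPM in siNAT10 (log2 fold change 0.11, SE 0.0320, edgeR quasi-likelihood adjusted p = 0.00551). NFE2L2, the factor of the oxidative stress response, was measured at 293, 270.4 and 276 CPM in siNC and at 247, 263 and 249.7 CPM in siNAT10 (log2 fold change -0.15, SE 0.0357, edgeR quasi-likelihood adjusted p = 0.00139). The first was higher and the second lower, each without overlap, and the value of NFE2L2 was -0.24 with the gene length trend. Their relative NFE2L3 fell from 18.8, 18.9 and 18.3 CPM to 9.59, 9.47 and 9.94 CPM (log2 fold change -0.95, SE 0.0712, edgeR quasi-likelihood adjusted p = 8.52e-12), and MAFF, a small partner of these factors, from 138, 137 and 127 CPM to 97.8, 93.6 and 101 CPM (log2 fold change -0.46, SE 0.0394, edgeR quasi-likelihood adjusted p = 1.38e-10). No library of either gene crossed into the range of the other group.

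Of 10 shuttle and unfolding factors 4 were higher and 2 lower. RAD23B, which carries ubiquitinated proteins to the base, was higher at a log2 fold change of 0.22 ± 0.0342 (SE; edgeR quasi-likelihood adjusted p = 3.97e-06). Of 6 genes of ubiquitin supply 1 was higher and 2 lower. RPS27A, which encodes ubiquitin fused to a ribosomal protein, was lower at -0.32 ± 0.0346 (edgeR quasi-likelihood adjusted p = 9.19e-09), and the ubiquitin-activating enzyme gene UBA6 was higher at 0.15 ± 0.0387 (adjusted p = 0.00255), which was 0.069 and not called with the gene length trend. The COP9 signalosome, a complex built like the lid that acts on cullin ligases, had 8 of 10 genes not called. Its catalytic subunit gene COPS5 was lower at -0.17 ± 0.0386 (edgeR quasi-likelihood adjusted p = 0.000708) and COPS6 higher at 0.13 ± 0.0345 (adjusted p = 0.00329).

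**Figure D5:**
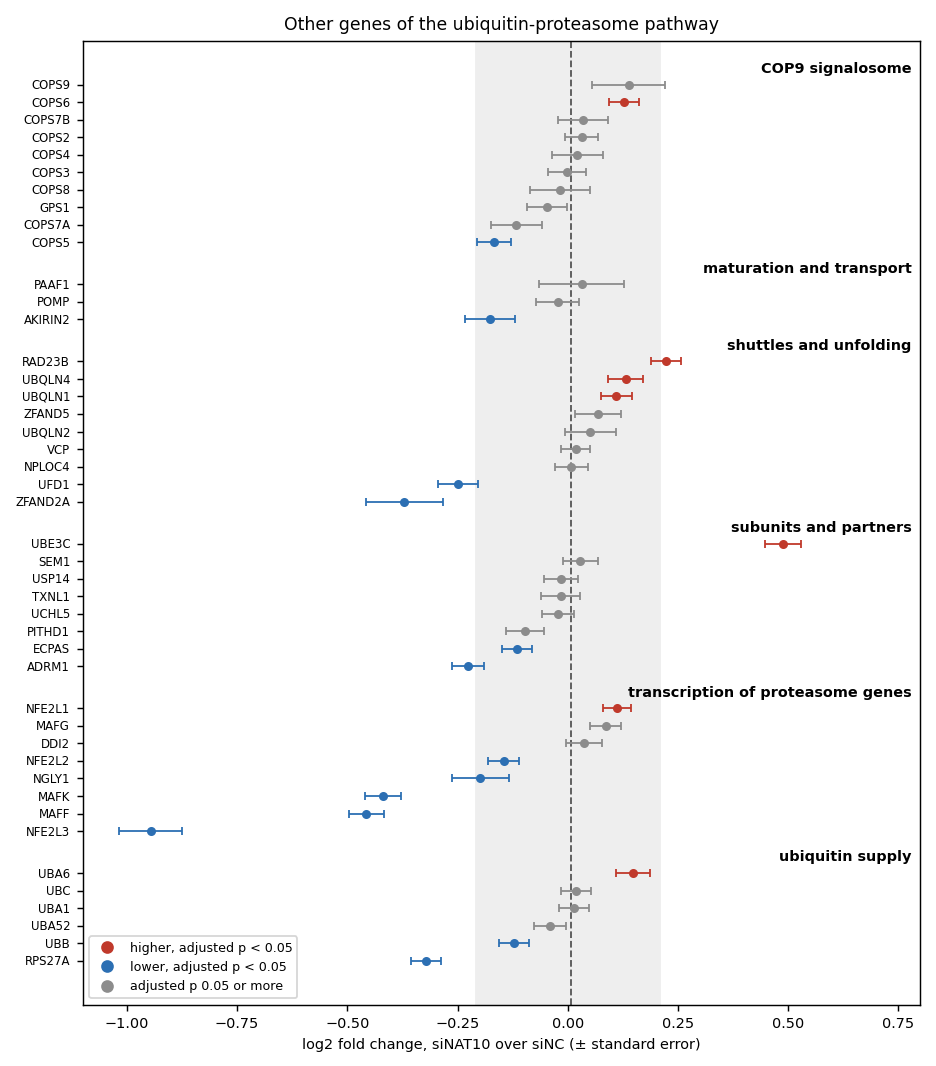
Log2 fold change of 44 of the 45 other pathway genes, siNAT10 over siNC, with bars of 1 standard error, by list; blue points were called lower, red points higher and grey points neither, with the interquartile range of all genes tested as a grey band and their median as a dashed line. Points lie on both sides of 0, from NFE2L3 at -0.95 to UBE3C at 0.49.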

How the data were processed

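Sequencing libraries from mRNA retained strand and carried molecular identifiers. The deposited values are raw counts per gene, made with featureCounts. The submitters' processing notes also name Trimmomatic 0.36, STAR 2.5.3a, Subread 1.5.1, edgeR 3.12.1 and GRCh38. All 6 libraries were used, grouped by their labels. Differences were fitted with edgeR 4.0.16, which builds on limma 3.58.1, under R 4.3.3. Genes were kept by filterByExpr (minimum count 10, minimum total 15), scaled by TMM and compared with glmQLFit and glmQLFTest without a replicate term. The program was tested on simulated data. The standard error was taken from the fold change and the F statistic. Promoters were searched with Python 3.11.15 and pandas 2.3.3, and matplotlib 3.10.9 drew the plots. The members and lists were chosen with earlier results of these data known. Every member was described by role. Values in every library were given for the catalytic subunits PSMB5, PSMB6 and PSMB7, PSMB10, activators, the inhibitor and assembly factors, and for the 2 largest called rises and falls in each ring, the base and the lid. From related genes, NFE2L1, NFE2L2, POMP, ADRM1, SEM1, USP14 and the 2 with the smallest p of each list were named, except 1 gene that is not reported here. Markers were named after their values were seen. Alternatives were RLE, upper quartile and library size scaling, no filter and a minimum count of 50, a block for the replicate number, the omission of each library in turn, DESeq2 1.42.0, a per-library trend over gene length, a limit of 2-fold and the constitutive subunits only. Library depth, 19321665 to 25192736 counts, sets the precision of genes with few counts such as PSMG4.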

Additional observations from a re-analysis of the deposited data

How the results depend on the processing

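Over 14 alternatives, 563 of 616 values for the 44 members kept their direction and their side of the limit, and no called member changed sign. Of the 33 called members 26 kept their call under all 14, and the other 7, PSMA1, PSMA3, PSMB10, PSMD9, PSMD11, PSME1 and PSMG1, lost it under at least 1. Members called lower numbered 25 to 30, including 25 to 29 with 1 library left out, beside 29. Those called higher numbered 2 with DESeq2, 5 with library size scaling and 2 to 4 with 1 library left out, beside 4. With a limit of 2-fold, 464 genes in all, 0 members higher, 0 lower and 0 related genes were called. The largest log2 fold changes were -0.95 for PSME3 among the members and -0.95 for NFE2L3 among the related genes. The median log2 fold change of the members, -0.16, was -0.12 under scaling by library size only, which moved the median of all genes to 0.044, -0.16 to -0.15 with 1 library left out and -0.19 over the constitutive subunits. All genes called numbered 7822 to 8168 with 1 library left out and 6306 with DESeq2, of 20373 with an adjusted p, beside 8771. Related genes called numbered 18 with the gene length trend, 19 with library size scaling and with DESeq2, 22 with no filter or the stricter filter, and 20 with any library left out, beside 21. Reversed signs occurred among genes that were not called. Under library size scaling PSMD4 was at 0.0061, PSMD7 at 0.030, POMP at 0.015, USP14 at 0.022, KRT8 at 0.033 and KRT19 at 0.034. With no filter PSMD7 was at 0.0034, KRT8 at 0.0068 and KRT19 at 0.0075. With the gene length trend PSMD4 was at 0.0069, PSMD7 at 0.039, PSME4 at -0.055, PSMG2 at -0.061, SEM1 at -0.046 and KRT19 at 0.048, and UBA6 lost its call (edgeR quasi-likelihood adjusted p = 0.154; 0.000280 to 0.154 over all alternatives). With 1 library left out PSMD7 ranged from -0.038 to 0.012, PSME4 from -0.021 to 0.057, PSMG2 from -0.085 to 0.082, POMP from -0.086 to 0.029, SEM1 from -0.012 to 0.088, USP14 from -0.032 to 0.0060, KRT8 from -0.020 to 0.0040 and KRT19 from -0.021 to 0.015. For these moves the cause was not tested. With the replicate block 8526 genes, 4 members higher, 28 lower and 21 related genes were called, with a member median of -0.16, and PSMG1 was the member whose call was lost. The deviations of libraries of the same number had correlations across genes of 0.0081, 0.064 and -0.21. Those of libraries of different numbers ran from -0.22 to 0.20. With 3 libraries per group, these values cannot decide whether the number pairs the samples.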
